A study of Mus musculus with 15 samples.

Results

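The sterol and fatty acid synthesis genes described here are 33 genes of the 2 pathways by which a cell builds cholesterol and long-chain fatty acids from acetyl-CoA, together with the proteins that regulate them. The members were a fixed list of gene names, chosen with earlier results of these data known. Each member was matched to the gene names printed on the array. A name was found for 32 of them, all 32 passed the filter on dim probes, and no probe was named Acat2. They form 3 groups, with 15 sterol enzymes (Hmgcs1 to Dhcr7), 12 fatty acid enzymes (Acly to Fads2) and 5 regulators and transport proteins (Srebf1, Srebf2, Scap, Insig1 and Stard4), among 19506 genes tested. Expression was measured on 15 one-colour Agilent arrays of RAW264.7 cells, a mouse macrophage-like line, in 5 groups of 3 replicates. The groups were dexamethasone (DEX), fluticasone furoate (FF), the coded compounds VSG158 and VSG159, and vehicle (labelled EtOH and DMSO). DEX and FF are synthetic glucocorticoids. By the protocol attached to all samples, cells were kept in 100 nM compound for 1 h and LPS was then added at 1 ug per ml for 16 h. LPS is a bacterial lipid and sugar polymer that strongly activates macrophages. The vehicle labels name the solvents alone, so the comparisons with vehicle take it that vehicle cells were given LPS too. Which compound was dissolved in which solvent is not stated, and a solvent effect cannot be told apart from a compound effect. The labels give 3 replicates per group, although the series text speaks of duplicated treatments. Nothing says that these came from separate cultures, so the p-values measure the spread between these samples, which may be technical.

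Sterol synthesis runs from acetyl-CoA through mevalonate, isoprenoids and squalene to lanosterol, and then through a series of demethylations and reductions to cholesterol. Fatty acid synthesis carboxylates acetyl-CoA to malonyl-CoA, builds palmitate on fatty acid synthase, and then elongates and desaturates the chain. In mammals both branches are under the SREBP transcription factors, which Scap escorts out of the endoplasmic reticulum when sterols are low and which Insig proteins hold back when sterols are high. SREBP-2 is known mainly for the sterol genes, and SREBP-1c, which liver X receptors also induce, mainly for the fatty acid genes.

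The 75th percentile of the processed signal lay between 695 and 1223 on the 15 arrays, and no spot was saturated. Values below are log2 processed signal relative to the 75th percentile of the same array, so they compare arrays for 1 gene and not genes with each other. Of the 8 macrophage markers on the array, all 8 were well above background on every array. Fibroblast (Col1a1, Pdgfrb), epithelial (Krt8, Cdh1), hepatocyte (Alb, Apoa1, Ttr) and adipocyte (Adipoq, Cidec) genes were well above background on 0 arrays, while Dcn, Cd3e and Lep were on all 15. Slide 1 carried all vehicle and VSG158 arrays and VSG159 replicates 1 and 2. Slide 2 carried all FF and DEX arrays and VSG159 replicate 3. DEX and FF therefore shared no slide with vehicle, and a slide difference enters those comparisons except as far as the split VSG159 group allows it to be estimated. VSG158 replicate 3 had 960 spots marked as outliers against 98 to 668 on the other arrays, and it was the lowest array of its group for 24 of the 32 members and for 54.9% of all genes. Less RNA per cell and fewer cells of a kind cannot be told apart in these bulk samples.

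Most enzymes of both branches were higher than vehicle with each compound, and few were lower. A member is counted as called when its Benjamini-Hochberg adjusted p over all genes in limma was under 0.05. Under DEX, 16 of the 32 members were called higher and 3 lower, while 46.3% of all genes were called, 23.2% higher and 23.1% lower. Under FF, 18 were called higher and 2 lower, against 42.2% of all genes called, 20.9% higher and 21.4% lower. Under VSG158, 18 were higher and 3 lower, against 44.2% of all genes, 19.7% higher and 24.5% lower. Under VSG159, 18 were higher and 4 lower, against 44.1% of all genes, 19.1% higher and 25% lower. These 4 comparisons share the vehicle arrays, and the members were listed with earlier results of these data known. The same 16 members, or 50%, were called higher with all 4 compounds, as were 15.6% of all genes. Of the remaining members, Sqle and Insig1 were called lower with all 4 (6.25%, against 15.8% of all genes), and 9 were never called. The median change of the 32 members was 0.41 under DEX, 0.53 under FF, 0.52 under VSG158 and 0.58 under VSG159 on the log2 scale. The corresponding medians of all genes were 0.03, -0.05, -0.06 and -0.06. The arrays of the compound and of vehicle did not overlap for 23 members under DEX, 23 under FF, 22 under VSG158 and 22 under VSG159. That held for 60%, 57.3%, 52.3% and 50.8% of all genes.

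With slide as a further term in the fit, 11 members were called higher and 3 lower under DEX and 15 higher and 1 lower under FF. With that term VSG158 had 18 higher and 4 lower, as did VSG159. On slide 1 alone, where vehicle, VSG158 and VSG159 replicates 1 and 2 could be compared, VSG158 had 16 members higher and 2 lower and VSG159 16 higher and 3 lower. A fit with both slide and array position, which runs nearly in step with the groups, left 0 higher and 0 lower under DEX, 4 and 0 under FF, 18 and 0 under VSG158, and 11 and 0 under VSG159. The share of all genes called was not counted for these fits with slide or for slide 1 alone. A loss of calls common to all genes therefore cannot be told from a loss among the members. Scaling to the array median in place of the 75th percentile kept 45 of the 82 calls, among them those of Fasn, Acaca, Scd1, Scd2, Elovl5, Elovl6, Mvk and Lss with all 4 compounds. Without VSG158 replicate 3, VSG158 had 20 members higher and 2 lower.

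**Figure D1:**
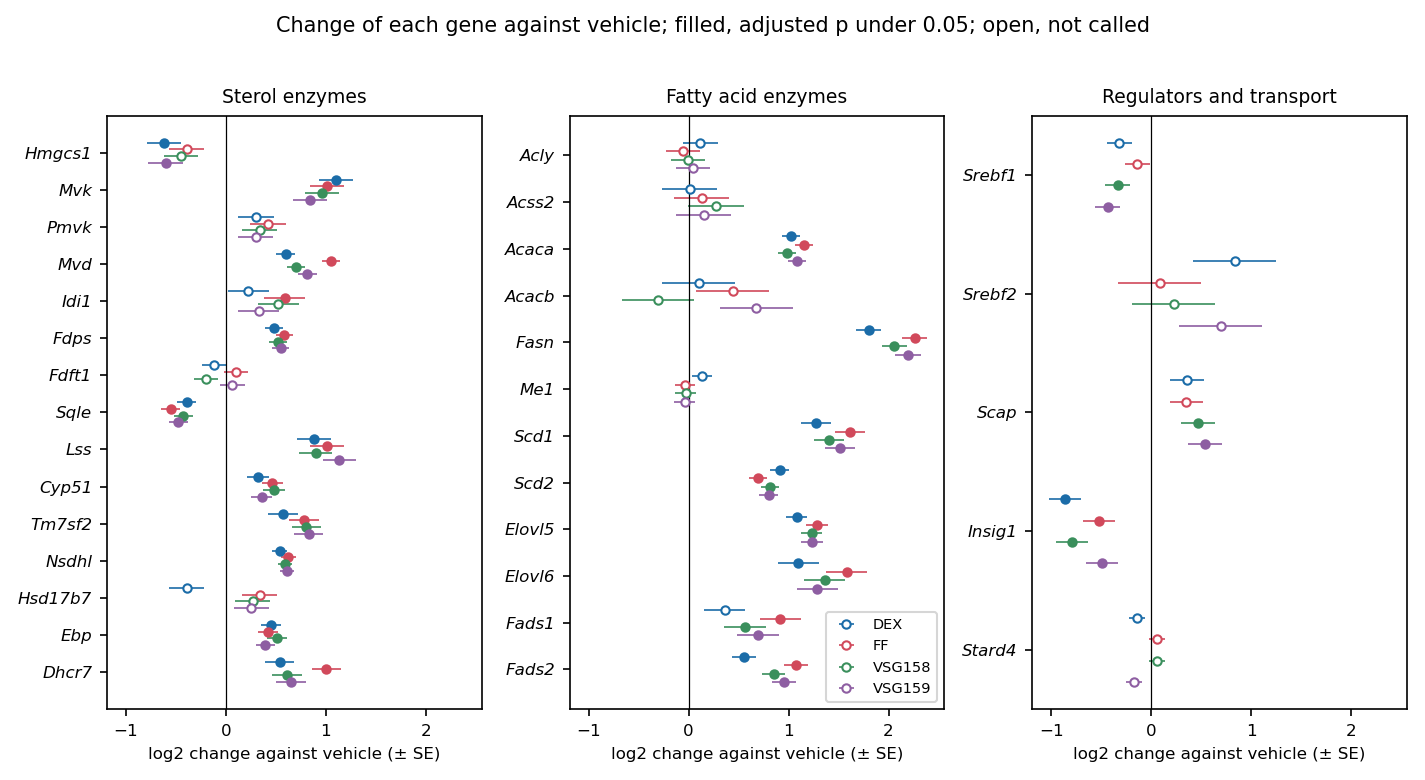
Change of each gene against vehicle on the log2 scale (horizontal axis), with its standard error, for DEX, FF, VSG158 and VSG159 in 15 sterol enzymes, 12 fatty acid enzymes and 5 regulators and transport proteins. Filled points have an adjusted p under 0.05, and most filled points lie to the right of 0, with Hmgcs1, Sqle, Srebf1 and Insig1 to the left.

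The enzymes that carry acetyl-CoA to palmitate and its unsaturated products showed the largest rises, led by Fasn. Of the 12 fatty acid enzymes, 7 rose under DEX and 8 with each of FF, VSG158 and VSG159, and 0 fell. That is 58.3% called higher under DEX and 66.7% under each of FF, VSG158 and VSG159. Of all genes, 23.2% were called higher under DEX, 20.9% under FF, 19.7% under VSG158 and 19.1% under VSG159. The median change of the fatty acid enzymes was 0.73 under DEX, 1.00 under FF, 0.83 under VSG158 and 0.88 under VSG159. Fasn, the multidomain enzyme that builds palmitate, was read by a probe at chr11:120668460-120668519 (mm9). It measured 4.34, 4.59 and 4.37 under DEX, 4.82, 4.93 and 4.92 under FF, 4.70, 4.72 and 4.64 under VSG158 and 4.84, 4.89 and 4.76 under VSG159, against 2.96, 2.41 and 2.53 in vehicle. Every treated array lay more than 1 log2 unit above every vehicle array. The change was 1.80 under DEX, 2.26 under FF, 2.06 under VSG158 and 2.20 under VSG159 (SE 0.13 each), or 3.49-fold, 4.79-fold, 4.16-fold and 4.58-fold. The limma adjusted p-values of Fasn were 5.44e-07 under DEX, 5.75e-08 under FF, 1.29e-07 under VSG158 and 7.6e-08 under VSG159.

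Acaca, the cytosolic acetyl-CoA carboxylase that makes the malonyl-CoA used by Fasn, was read at chr11:84215093-84215152 (mm9). It measured 3.25, 3.14 and 3.14 under DEX, 3.30, 3.30 and 3.33 under FF, 3.20, 3.24 and 2.97 under VSG158 and 3.21, 3.24 and 3.27 under VSG159, against 2.24, 2.03 and 2.20 in vehicle. Treated and vehicle arrays did not overlap, and Acaca rose by 1.02 under DEX, 1.15 under FF, 0.99 under VSG158 and 1.09 under VSG159 (SE 0.09 each, highest limma adjusted p 2.67e-06). The enzymes that supply acetyl-CoA and reducing power did not share this pattern of calls. Acly, which splits citrate into acetyl-CoA, changed by 0.12 under DEX, -0.06 under FF, -0.01 under VSG158 and 0.04 under VSG159, and Acss2, which activates acetate, by 0.01, 0.13, 0.27 and 0.15 in the same order. By its brightest probe neither was called with any compound, and the same held for Me1, the cytosolic malic enzyme that makes NADPH (0.14 under DEX, -0.03 under FF, -0.03 under VSG158, -0.04 under VSG159). Acacb, the carboxylase isoform at the mitochondrion that is linked to restraint of fatty acid oxidation, varied widely among arrays and was not called (0.10 under DEX, 0.44 under FF, -0.31 under VSG158, 0.68 under VSG159, SE 0.36 each). Acacb was called higher with slide in the fit under FF at 1.54 (limma adjusted p 0.0479) and under VSG159 at 1.04 (0.0249), and under VSG159 also on slide 1 alone (0.0277). A dimmer Acacb probe, well above background on 8 of the 15 arrays, was called lower under DEX alone (-0.71, limma adjusted p 0.0387). Another dim Acacb probe, well above background on 12 arrays, was not called (0.47 under DEX, 0.51 under FF, 0.86 under VSG158, 0.50 under VSG159). A dimmer Acly probe, well above background on 11 of the 15 arrays, was called lower under VSG158 (-1.29, limma adjusted p 0.0043), as was the mean of both Acly probes (-0.65, 0.00605). Acss2 was called higher under VSG158 with normexp background correction (0.54, limma adjusted p 0.0331) and in the value table (0.64, 0.0192). A second tested Me1 probe was called lower with all 4 compounds, at -0.48 under DEX, -0.52 under FF, -0.67 under VSG158 and -0.77 under VSG159.

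The desaturases and elongases that act on palmitate rose as well. Scd1, a stearoyl-CoA desaturase that makes monounsaturated fatty acids, was read at chr19:44469387-44469446 (mm9). It measured -0.17, 0.09 and -0.14 under DEX, 0.29, 0.38 and 0.14 under FF, 0.13, 0.29 and -0.24 under VSG158 and 0.07, 0.11 and 0.34 under VSG159, against -1.21, -1.56 and -1.26 in vehicle. Every treated array was above the vehicle range, with a change of 1.28 under DEX, 1.62 under FF, 1.41 under VSG158 and 1.52 under VSG159 (SE 0.15 each). Scd2, its paralogue at chr19:44381024-44381083 (mm9), measured 6.24, 6.18 and 6.37 under DEX, 5.96, 6.20 and 5.98 under FF, 6.20, 6.25 and 6.05 under VSG158 and 6.15, 6.19 and 6.12 under VSG159, against 5.31, 5.29 and 5.45 in vehicle. It rose by 0.91 under DEX, 0.69 under FF, 0.81 under VSG158 and 0.80 under VSG159 (SE 0.09 each). All 4 groups lay clear of vehicle for Scd2 too, and the limma adjusted p of the 2 desaturases was at most 6.75e-05.

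Elovl6, which elongates palmitate to stearate, was read at chr3:129337756-129337815 (mm9). It measured 0.68, 0.44 and 0.30 under DEX, 0.97, 1.00 and 0.91 under FF, 0.83, 1.13 and 0.25 under VSG158 and 0.56, 0.44 and 0.99 under VSG159, against -0.72, -0.56 and -0.59 in vehicle. The groups did not overlap with vehicle, although VSG158 spread over most of 1 log2 unit, and the change was 1.10 under DEX, 1.58 under FF, 1.36 under VSG158 and 1.29 under VSG159 (SE 0.20 each). With slide in the fit, the DEX change of Elovl6 was 0.61 with a limma adjusted p of 0.168. Elovl5, an elongase of polyunsaturated chains, was read at chr9:77832205-77832264 (mm9). It measured 2.30, 2.09 and 2.19 under DEX, 2.47, 2.41 and 2.31 under FF, 2.36, 2.49 and 2.18 under VSG158 and 2.33, 2.28 and 2.43 under VSG159, against 1.25, 1.15 and 0.93 in vehicle. It rose by 1.08 under DEX, 1.28 under FF, 1.23 under VSG158 and 1.23 under VSG159 (SE 0.11 each) with no overlap. A second Elovl5 probe was well above background on 4 of the 15 arrays. With the mean of both probes the Elovl5 calls ended for every compound. The changes were then 0.33 under DEX (limma adjusted p 0.449), 0.88 under FF (0.0546), 0.72 under VSG158 (0.106) and 0.81 under VSG159 (0.0743).

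Fads2, the desaturase that opens the polyunsaturated pathway, was read by 5 tested probes. The brightest measured 1.11, 0.98 and 0.95 under DEX, 1.57, 1.59 and 1.44 under FF, 1.37, 1.39 and 1.17 under VSG158 and 1.31, 1.30 and 1.64 under VSG159, against 0.61, 0.49 and 0.28 in vehicle. It rose by 0.55 under DEX, 1.07 under FF, 0.85 under VSG158 and 0.96 under VSG159 (SE 0.12 each). All treated arrays were above vehicle, with the DEX arrays below the other treated arrays. With slide in the fit the DEX change of Fads2 was 0.22 (limma adjusted p 0.344). Fads1, the desaturase further down the same pathway, changed by 0.36 under DEX, 0.92 under FF, 0.57 under VSG158 and 0.69 under VSG159 (SE 0.21 each). By its brightest probe it was called under FF, VSG158 and VSG159 (limma adjusted p 0.00345, 0.0446 and 0.0174) and not under DEX (0.179). The Fads1 call under FF ended with slide in the fit (0.36, adjusted p 0.416), that under VSG158 when 11 of the 15 arrays were left out in turn, and that under VSG159 with slide in the fit (0.51, adjusted p 0.0593) and on slide 1 alone (0.118). Under DEX Fads1 was called with normexp (0.45, limma adjusted p 0.0349) and in the value table (0.43, 0.0495). A dimmer Fads1 probe was well above background on 14 of the 15 arrays. It was called higher with each compound, at 0.78 under DEX (limma adjusted p 0.0303), 0.75 under FF, 0.73 under VSG158 and 0.91 under VSG159. Another dim Fads1 probe, well above background on 9 arrays, was not called (-0.12 under DEX, 0.36 under FF, -0.58 under VSG158, -0.03 under VSG159).

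**Figure D2:**
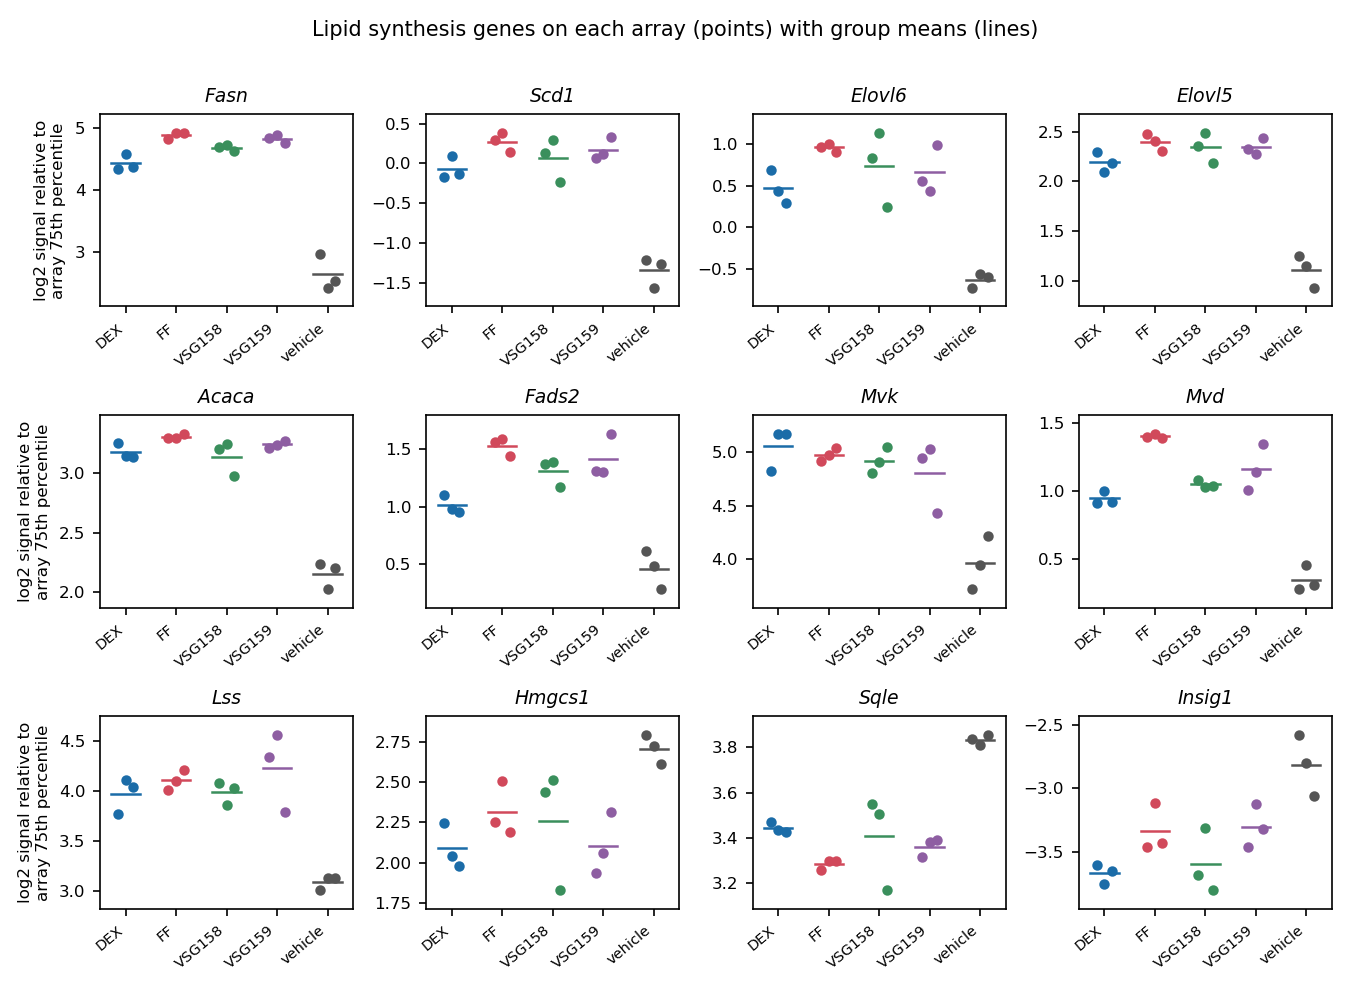
Log2 processed signal relative to the array's 75th percentile (vertical axis, a separate scale in each panel) of 12 genes on each of the 15 arrays; points are arrays, in replicate order from left to right within DEX, FF, VSG158, VSG159 and vehicle, and lines are group means (n = 3). The vehicle points lie below all treated points in Fasn through Lss, and above them in Hmgcs1, Sqle and Insig1.

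In the sterol branch more enzymes were called higher than lower. Of its 15 enzymes, 9 rose and 2 fell under DEX, and 10 rose and 1 fell under FF. Under VSG158 9 rose and 1 fell, and under VSG159 9 rose and 2 fell. Calls higher were 60% under DEX, 66.7% under FF and 60% under VSG158 and VSG159, against 23.2%, 20.9%, 19.7% and 19.1% of all genes. Calls lower were 13.3%, 6.67%, 6.67% and 13.3% in the same order, against 23.1%, 21.4%, 24.5% and 25%. The median change of the sterol enzymes was 0.45 under DEX, 0.59 under FF, 0.52 under VSG158 and 0.40 under VSG159. The 9 enzymes that rose with all 4 compounds were Mvk, Mvd, Fdps, Lss, Cyp51, Tm7sf2, Nsdhl, Ebp and Dhcr7. Mvk, the kinase that phosphorylates mevalonate, was read at chr5:114910540-114910599 (mm9). It measured 4.83, 5.17 and 5.17 under DEX, 4.92, 4.97 and 5.04 under FF, 4.81, 4.91 and 5.05 under VSG158 and 4.95, 5.03 and 4.43 under VSG159, against 3.72, 3.94 and 4.21 in vehicle. The nearest arrays were VSG159 replicate 3 and vehicle replicate 3, and the groups did not overlap. Mvk rose by 1.10 under DEX, 1.01 under FF, 0.96 under VSG158 and 0.84 under VSG159 (SE 0.17 each, highest limma adjusted p 0.00157). Its second tested probe changed by -0.31 under DEX, 0.24 under FF, 0.09 under VSG158 and 0.21 under VSG159 and was not called.

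Mvd, the decarboxylase that turns mevalonate diphosphate into isopentenyl diphosphate, had a single probe at chr8:124957750-124957809 (mm9). It measured 0.91, 1.01 and 0.92 under DEX, 1.40, 1.42 and 1.39 under FF, 1.09, 1.03 and 1.04 under VSG158 and 1.01, 1.14 and 1.35 under VSG159, against 0.28, 0.46 and 0.31 in vehicle. It rose by 0.60 under DEX, 1.05 under FF, 0.70 under VSG158 and 0.82 under VSG159 (SE 0.09 each), with limma adjusted p-values of 0.000222, 1.81e-06, 5.35e-05 and 1.52e-05 in that order. No treated array reached the vehicle range, and the 3 FF arrays lay above all other arrays. With slide in the fit the DEX change of Mvd was 0.32 (limma adjusted p 0.0696). Pmvk, the kinase between Mvk and Mvd, changed by 0.30 under DEX, 0.42 under FF, 0.34 under VSG158 and 0.30 under VSG159 and was not called. Pmvk was called higher with slide in the fit under DEX at 0.87 (limma adjusted p 0.0201), FF at 0.99 (0.0126) and VSG159 at 0.49 (0.0254), and under FF also with slide as a random block, quantile normalization and the deposited value table. Idi1, which isomerizes isopentenyl diphosphate, was called under FF at 0.59 (limma adjusted p 0.0366) and not under DEX at 0.22, VSG158 at 0.53 or VSG159 at 0.33. That call ended with slide in the fit (0.31, adjusted p 0.541) and when 5 of the 15 arrays were left out in turn, while VSG158 was called with normexp, quantile normalization and the value table (highest adjusted p 0.0349).

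Fdps, which makes farnesyl diphosphate, rose by 0.48 under DEX, 0.59 under FF, 0.52 under VSG158 and 0.55 under VSG159 (SE 0.09 each). Fdft1, the squalene synthase that commits farnesyl diphosphate to sterols, was not called and changed by -0.12 under DEX, 0.10 under FF, -0.20 under VSG158 and 0.07 under VSG159. Lss, which closes the rings of lanosterol, was read at chr10:76016592-76016651 (mm9). It measured 3.77, 4.11 and 4.04 under DEX, 4.01, 4.10 and 4.21 under FF, 4.08, 3.86 and 4.03 under VSG158 and 4.33, 4.56 and 3.79 under VSG159, against 3.01, 3.13 and 3.13 in vehicle. Treated and vehicle arrays of Lss did not overlap, and it rose by 0.88 under DEX, 1.01 under FF, 0.90 under VSG158 and 1.14 under VSG159 (SE 0.17 each, highest limma adjusted p 0.00111). A dimmer Lss probe, well above background on 13 of the 15 arrays, rose by 2.10 under DEX, 1.92 under FF, 1.99 under VSG158 and 1.94 under VSG159. The remaining Lss probe was at 0.02 under DEX, not called, and was called higher with the other 3 compounds.

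Of the enzymes after lanosterol, Nsdhl, Dhcr7, Tm7sf2, Ebp and Cyp51 rose with all 4 compounds and Hsd17b7 was not called. Nsdhl, a dehydrogenase of the demethylation steps read at chrX:70203236-70203295 (mm9), measured 1.69, 1.82 and 1.61 under DEX, 1.80, 1.76 and 1.82 under FF, 1.74, 1.79 and 1.75 under VSG158 and 1.77, 1.84 and 1.72 under VSG159, against 1.15, 1.22 and 1.13 in vehicle. Its treated arrays were tightly grouped above vehicle, at 0.54 under DEX, 0.62 under FF, 0.59 under VSG158 and 0.61 under VSG159 (SE 0.07 each, highest limma adjusted p 9.89e-05). Dhcr7, the reductase of the final step to cholesterol, rose by 0.54 under DEX, 1.00 under FF, 0.61 under VSG158 and 0.65 under VSG159 (SE 0.15 each). Tm7sf2, a sterol reductase, rose by 0.57 under DEX, 0.78 under FF, 0.81 under VSG158 and 0.83 under VSG159 (SE 0.15 each), and Ebp, the sterol isomerase, by 0.45, 0.42, 0.51 and 0.40 in the same order (SE 0.10 each). With slide in the fit, the calls of Dhcr7 under DEX (adjusted p 0.137), Tm7sf2 under DEX (0.326) and FF (0.129) and Ebp under DEX (0.101) and FF (0.137) ended in limma. A second Ebp probe, well above background on all 15 arrays, was not called (1.39 under DEX, 0.41 under FF, 0.86 under VSG158, 1.40 under VSG159). With the mean of both probes the Ebp calls ended under FF (limma adjusted p 0.259) and VSG158 (0.0588). In the value table they ended under DEX (0.338) and VSG159 (0.119), and with normexp under DEX (0.151). All 4 Ebp calls ended under scaling to the array median. Cyp51, the lanosterol demethylase, rose by 0.32 under DEX, 0.47 under FF, 0.48 under VSG158 and 0.36 under VSG159 (SE 0.11 each). The Cyp51 calls ended with the mean of both tested probes for all 4 compounds, and with slide in the fit the change was 0.01 under DEX, 0.16 under FF and 0.25 under VSG159.

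Hmgcs1 and Sqle, at the entry and in the middle of the sterol branch, went the other way. Hmgcs1, which condenses acetyl-CoA units into HMG-CoA, measured 2.25, 2.04 and 1.98 under DEX, 2.25, 2.51 and 2.19 under FF, 2.44, 2.51 and 1.83 under VSG158 and 1.94, 2.06 and 2.32 under VSG159, against 2.79, 2.72 and 2.61 in vehicle. All treated arrays were below all vehicle arrays. The change was -0.62 under DEX (limma adjusted p 0.012) and -0.60 under VSG159 (0.0139), both called, and -0.39 under FF (0.0931) and -0.45 under VSG158 (0.0548), neither called (SE 0.17 each). With slide in the fit the VSG158 change was called (limma adjusted p 0.0477), as it was with normexp (-0.53, 0.0197) and in the value table (-0.50, 0.0302). Without VSG159 replicate 1, the VSG159 call ended (adjusted p 0.0579), and with slide and array position in the fit the DEX change turned to 0.37 (adjusted p 0.891). Sqle, the squalene epoxidase and a known control point of the branch, was read at chr15:59162688-59162747 (mm9). It measured 3.47, 3.43 and 3.43 under DEX, 3.26, 3.30 and 3.30 under FF, 3.55, 3.51 and 3.17 under VSG158 and 3.31, 3.38 and 3.39 under VSG159, against 3.84, 3.81 and 3.85 in vehicle. Vehicle arrays lay above every treated array, and Sqle fell by 0.39 under DEX, 0.55 under FF, 0.43 under VSG158 and 0.47 under VSG159 on the log2 scale (SE 0.09 each, highest limma adjusted p 0.00477). The DEX call of Sqle ended with slide in the fit (-0.43, adjusted p 0.0616), and all 4 ended under scaling to the array median. Hsd17b7, a reductase of the demethylation steps, changed by -0.39 under DEX, 0.34 under FF, 0.27 under VSG158 and 0.25 under VSG159 and was not called against vehicle. With normexp background correction it was called higher under FF (0.36, limma adjusted p 0.0464), VSG158 (0.49, 0.00897) and VSG159 (0.44, 0.0156), as it was in the value table (0.40, 0.55 and 0.38), and with the mean of its probes it was called lower under DEX (-0.38, adjusted p 0.0406).

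The 5 regulators and transport proteins gave calls in both directions, and these varied with the compound, the probe and the fit. By the brightest probe, 0 of them rose and 1 fell under DEX and under FF. Under VSG158 and under VSG159, 1 rose and 2 fell. The share called was 20% under DEX and under FF, against 46.3% and 42.2% of all genes. It was 60% under VSG158 and under VSG159, against 44.2% and 44.1%. Srebf1, the gene of SREBP-1, measured 3.47, 3.61 and 3.39 under DEX, 3.65, 3.70 and 3.67 under FF, 3.59, 3.60 and 3.23 under VSG158 and 3.20, 3.33 and 3.59 under VSG159, against 3.82, 3.89 and 3.72 in vehicle. Vehicle was highest throughout, and the change was -0.32 under DEX (limma adjusted p 0.0524), -0.14 under FF (0.422), -0.33 under VSG158 (0.0451) and -0.43 under VSG159 (0.0129), with an SE of 0.12 each. The VSG158 call of Srebf1 ended in 10 of the 15 fits that each left out 1 array, among them the one without VSG158 replicate 3 (-0.21), and on slide 1 alone (adjusted p 0.0884). The VSG159 call ended without VSG159 replicate 1. Under DEX Srebf1 was called lower with slide in the fit (-0.64, limma adjusted p 0.0246), with slide as a random block, with quantile normalization and in the value table. Srebf2, the gene of SREBP-2, measured 5.84, 6.29 and 6.63 under DEX, 5.34, 5.46 and 5.70 under FF, 5.59, 5.00 and 6.34 under VSG158 and 6.63, 6.51 and 5.21 under VSG159, against 4.91, 5.53 and 5.81 in vehicle. The groups overlapped with vehicle except for DEX, the SE was 0.42, and no change was called (0.83 under DEX, 0.08 under FF, 0.22 under VSG158, 0.70 under VSG159). Srebf2 was, however, called higher with slide in the fit, under DEX at 2.20 (limma adjusted p 0.014) and under VSG159 at 1.15 (0.0236), and with slide as a random block under DEX (0.0423). A second Srebf2 probe with less spread changed by 0.03 under DEX, -0.05 under FF, -0.30 under VSG158 and -0.27 under VSG159 and was not called.

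Scap, the escort of the SREBPs, measured 2.28, 2.06 and 1.99 under DEX, 2.10, 2.20 and 2.02 under FF, 2.33, 2.22 and 2.12 under VSG158 and 2.20, 2.08 and 2.60 under VSG159, against 2.11, 1.55 and 1.60 in vehicle. Vehicle replicate 1 lay among the treated arrays. The change was called under VSG158 (0.47, limma adjusted p 0.0388) and VSG159 (0.54, 0.0206) and not under DEX (0.36, 0.101) or FF (0.35, 0.116). On slide 1 alone both Scap calls ended, with limma adjusted p-values of 0.0659 for VSG158 and 0.14 for VSG159, and both also ended with normexp (0.111 and 0.0608), in the value table (0.0986 and 0.106) and without the filter (0.101 and 0.0589). Insig1, which retains the SREBP and Scap complex and is itself a known SREBP target, was dim. It was well above background on 2 of 3 DEX arrays, 1 of 3 VSG158 arrays and all arrays of the other groups. It measured -3.61, -3.75 and -3.65 under DEX, -3.47, -3.11 and -3.43 under FF, -3.68, -3.32 and -3.80 under VSG158 and -3.46, -3.12 and -3.32 under VSG159, against -2.58, -2.80 and -3.06 in vehicle. All treated arrays lay below vehicle, and Insig1 fell by 0.86 under DEX, 0.52 under FF, 0.79 under VSG158 and 0.49 under VSG159 on the log2 scale (SE 0.16 each; limma adjusted p 0.00101, 0.0196, 0.00167 and 0.0269). With quantile normalization the Insig1 calls under FF (adjusted p 0.138) and VSG159 (0.168) ended, as they did with the value table (0.216 and 0.23), without the filter (0.0581 and 0.0768) and with slide in the fit (0.213 and 0.0501). On slide 1 alone the VSG159 call of Insig1 ended as well (limma adjusted p 0.108). Leaving out 1 array at a time ended the FF call in 4 of 15 fits and the VSG159 call in 3. Stard4, a cytosolic sterol carrier, was not called by its brightest probe (-0.14 under DEX, 0.06 under FF, 0.06 under VSG158, -0.17 under VSG159). A second Stard4 probe, well above background on all 15 arrays, was called higher at 0.53 under DEX, 1.01 under FF, 1.12 under VSG158 and 0.81 under VSG159.

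The 2 branches were set side by side by averaging, on each array, the members' differences from their own vehicle mean. The fatty acid enzymes averaged 0.71 ± 0.04 under DEX, 0.92 ± 0.03 under FF, 0.77 ± 0.19 under VSG158 and 0.88 ± 0.06 under VSG159 (SD, n = 3 each). The sterol enzymes averaged 0.30 ± 0.05 under DEX, 0.50 ± 0.04 under FF, 0.41 ± 0.13 under VSG158 and 0.40 ± 0.06 under VSG159. On each of the 12 treated arrays the fatty acid mean was above the sterol mean. The fatty acid minus the sterol mean was 0.41 ± 0.05 under DEX, 0.42 ± 0.02 under FF, 0.36 ± 0.06 under VSG158 and 0.48 ± 0.05 under VSG159, and it lay between -0.07 and 0.07 on the vehicle arrays, whose mean is 0 by construction. Both branch means were lowest on replicate 3 within VSG158, at 0.55 for the fatty acid and 0.26 for the sterol enzymes. No test is attached to these means, since the genes share their arrays and were listed with results of these data known.

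**Figure D3:**
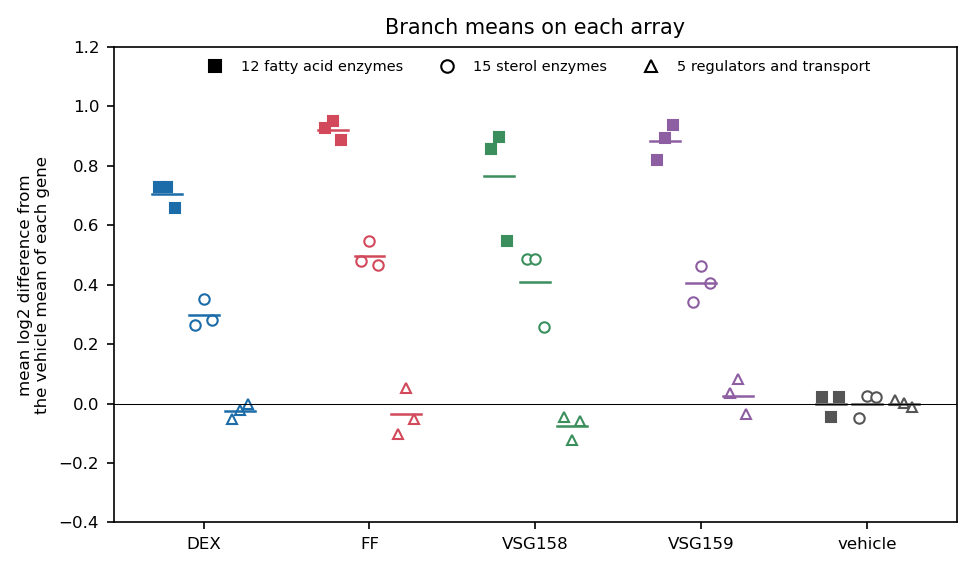
Mean over the members of each branch of the log2 difference from the gene's vehicle mean (vertical axis), with 1 point per array and lines at group means (n = 3), for DEX, FF, VSG158, VSG159 and vehicle. Fatty acid enzymes (filled squares) lie above sterol enzymes (open circles) on every treated array, and the regulators (open triangles) stay between -0.12 and 0.08.

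The members were also searched for short motifs near their start sites. RefSeq promoter windows (GRCm38.p6, 250 bases before to 50 after the start) were matched for 26 of the 33 members, whether or not they were called. The motif CCAAT, the core bound by NF-Y, a factor known to act beside SREBP, was present on either strand in 21 of the 26 (80.8%), against 41.1% of the 27025 genes in the table. By branch it was present in 12 of 13 sterol, 6 of 9 fatty acid and 3 of 4 regulator genes. The sterol element was searched only as TCACNCCAC, and other forms of it were not counted. That form was present in 1 of 26 (3.85%, Hmgcs1), against 1.44% of all genes. The consensus glucocorticoid receptor element was present in 0 of 26, against 0.537%. Motifs were counted on both strands and overlaps between them were kept. A match here describes letters in a window and no binding was measured. The 150 bases before the start are shown for Fasn, which rose most, and for Mvd and Nsdhl, which rose with all 4 compounds. They are also shown for Hmgcs1, which was called lower under DEX and VSG159 and holds the searched form of the sterol element. Capitals mark CCAAT or its reverse complement ATTGG and, in Hmgcs1, also the sterol element.
Fasn (chr11:120824548-120824697, minus strand): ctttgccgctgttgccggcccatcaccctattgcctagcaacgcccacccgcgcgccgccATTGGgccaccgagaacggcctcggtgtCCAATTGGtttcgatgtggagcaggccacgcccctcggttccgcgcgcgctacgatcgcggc
Mvd (chr8:122443423-122443572, minus strand): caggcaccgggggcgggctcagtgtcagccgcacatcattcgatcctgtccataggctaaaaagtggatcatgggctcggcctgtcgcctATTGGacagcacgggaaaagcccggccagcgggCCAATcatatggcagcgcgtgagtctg
Nsdhl (chrX:72918371-72918520, plus strand): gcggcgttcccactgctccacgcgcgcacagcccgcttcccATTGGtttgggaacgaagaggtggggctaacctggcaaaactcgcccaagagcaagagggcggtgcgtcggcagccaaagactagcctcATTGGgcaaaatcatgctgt
Hmgcs1 (chr13:119690201-119690350, plus strand): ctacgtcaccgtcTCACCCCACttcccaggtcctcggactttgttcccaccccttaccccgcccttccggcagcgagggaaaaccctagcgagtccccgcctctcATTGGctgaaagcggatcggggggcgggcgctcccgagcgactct
In the Fasn stretch the second and the third match overlap, and in Hmgcs1 the sterol element begins at -137 from the start.

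Differences between the compounds were few. All 6 pairs of compounds were compared in the same fit. FF was higher than DEX for 3 members (9.38%) and lower for 0, while 4.14% of all genes were called in that comparison, 1.86% higher and 2.28% lower. Mvd differed by 0.46 (95% interval 0.26 to 0.65, limma adjusted p 0.022), with 1.40, 1.42 and 1.39 under FF against 0.91, 1.01 and 0.92 under DEX. Fads2 differed by 0.52 (0.26 to 0.78, adjusted p 0.0355 in limma), and its FF and DEX arrays did not overlap either. Hsd17b7 measured 2.13, 2.05 and 1.85 under FF against 1.15, 1.60 and 1.09 under DEX, a difference of 0.73 (0.35 to 1.11, limma adjusted p 0.0418) with no overlap. Between these 2 groups 19 of the 32 members did not overlap, as did 38.4% of all genes. Leaving out any FF array, DEX replicate 1 or DEX replicate 3 brought the 3 calls to 0. On slide 2 alone, which holds both groups, Mvd (adjusted p 0.0419) and Fads2 (0.0447) were called in limma and Hsd17b7 was not (0.0644). Fasn differed by 0.46 between FF and DEX (0.18 to 0.74, limma adjusted p 0.0655), and was called with normexp background correction (0.61, adjusted p 0.0375), quantile normalization (0.59, 0.0428) and the deposited value table (0.74, 0.0385).

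Against DEX, 0 members were called for VSG158 (1.99% of all genes called) and 0 for VSG159 (5.55%). There 3 and 5 of the 32 members had an unadjusted p under 0.05 in limma, as did 3274 and 4306 of all 19506 genes. The member closest to a call in both was Hsd17b7, higher by 0.66 (0.28 to 1.04, limma adjusted p 0.08) under VSG158 and by 0.65 (0.27 to 1.03, adjusted p 0.052) under VSG159. It was called in both with normexp (limma adjusted p 0.0224 for VSG158 and 0.0206 for VSG159) and in the value table (0.0217 and 0.0431). Against FF, 0 members were called for VSG158 and 0 for VSG159, and 0 between VSG159 and VSG158, as was 0% of all genes. In that order 3, 4 and 3 members had an unadjusted p under 0.05 in limma, as did 1229, 1177 and 1203 of all genes. The intervals remained wide enough to hold moderate differences. For Fasn they ran from -0.48 to 0.07 for VSG158 minus FF, from -0.34 to 0.21 for VSG159 minus FF and from -0.14 to 0.42 for VSG159 minus VSG158. A Mvd difference of -0.35 for VSG158 minus FF (-0.55 to -0.15) had a limma adjusted p of 0.785.

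**Figure D4:**
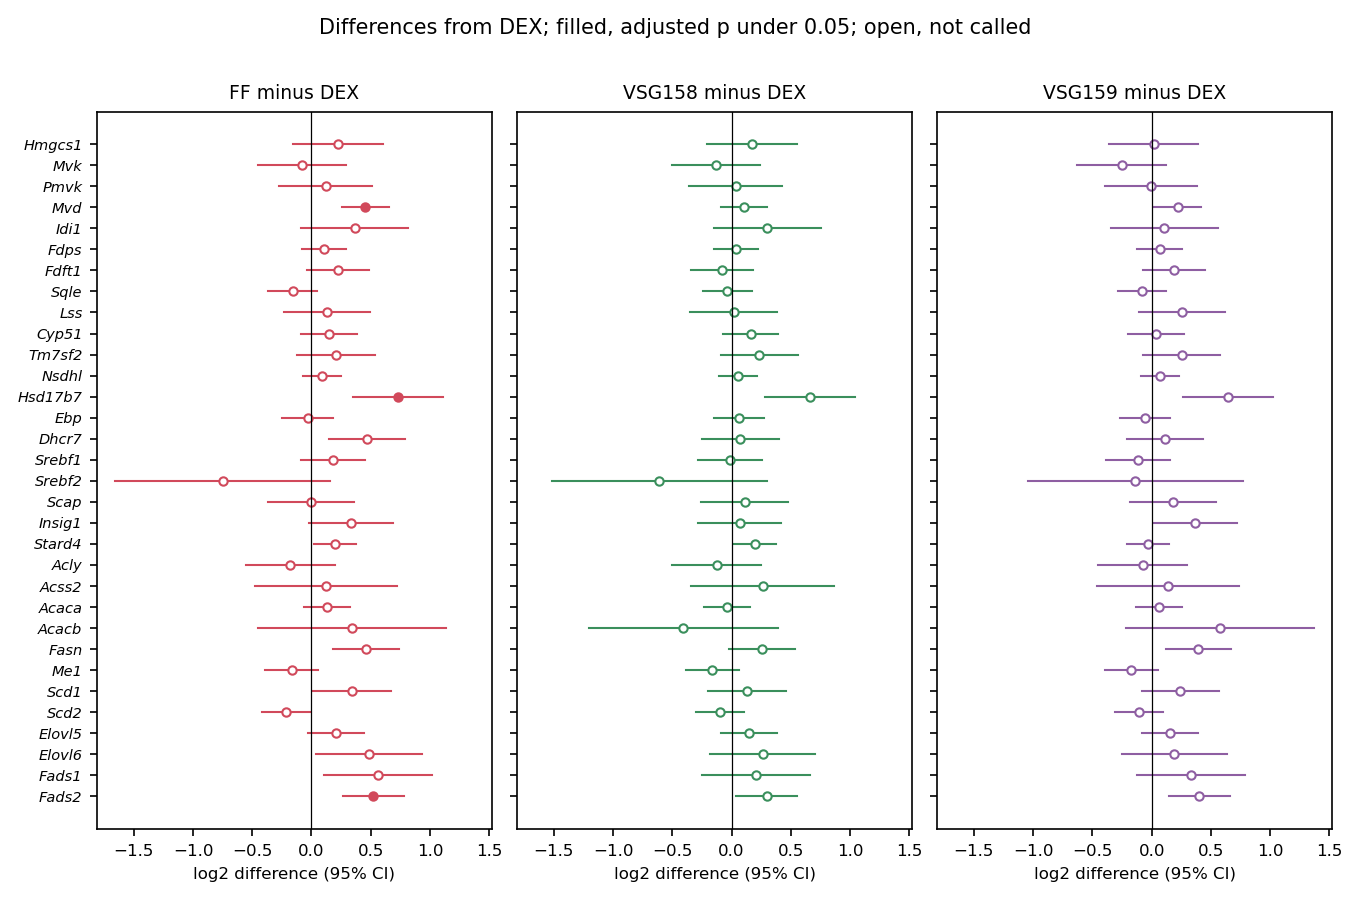
Difference from DEX on the log2 scale with its 95% interval (horizontal axis) for each of the 32 genes, in 3 panels for FF, VSG158 and VSG159. Filled points, with an adjusted p under 0.05, are Mvd, Hsd17b7 and Fads2 in the FF panel alone.

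Several members were read by more than 1 tested probe, and the brightest stood for the gene. For 19 members there were 27 further probes. Among those whose brightest probe was called under DEX, 4 further probes were called in the same direction, 7 shared the sign but were not called, and 3 had the other sign and were not called. Under FF 8 were called in the same direction and 8 shared the sign alone. Under VSG158 these counts were 7 and 8, with 1 of the other sign, and under VSG159 7 and 8, again with 1 of the other sign. All 5 Fads2 probes had a positive change with each compound, and 2 of the 4 further ones were called with all 4 compounds. Some of the further probes were near background, such as a second Scd1 probe that was well above background on 3 arrays.

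Other genes of the pathways were taken from a longer list, and their counts can be set against the shares of all genes given above for each comparison. Of 6 further genes listed with the sterol enzymes, 2 rose and 1 fell under DEX and under VSG158. Under FF and under VSG159, 3 rose and 1 fell. The largest rise was in Acat1, at 1.14 under DEX, 1.26 under FF, 1.22 under VSG158 and 1.28 under VSG159 (SE 0.10 each). Acat1 is the mitochondrial acetoacetyl-CoA thiolase and not the member Acat2, for which no probe was named. It is among the rises counted here for each compound. Of 23 further fatty acid and acylglycerol enzymes, 8 rose and 5 fell under DEX, 8 and 4 under FF, 9 and 4 under VSG158, and 8 and 4 under VSG159. That is 34.8% higher and 21.7% lower under DEX, 34.8% and 17.4% under FF, 39.1% and 17.4% under VSG158, and 34.8% and 17.4% under VSG159. Hacd3, a dehydratase of chain elongation, rose by 1.52 under DEX, 1.42 under FF, 1.39 under VSG158 and 1.33 under VSG159 (SE 0.09 each). Gpam, which adds the first acyl chain to glycerol phosphate, rose by 1.07 under DEX, 1.12 under FF, 1.19 under VSG158 and 1.27 under VSG159 (SE 0.13 each). Dgat2, which completes triglycerides, measured 0.87, 0.79 and 1.07 under DEX, against -0.20, -0.35 and -0.39 in vehicle. It rose by 1.22 under DEX, 0.61 under FF, 0.85 under VSG158 and 0.72 under VSG159 (SE 0.15 each). All treated arrays lay above all vehicle arrays for Dgat2. Elovl3 was dim and spread widely (SE 0.60), and was called under FF (2.06), VSG158 (1.79) and VSG159 (1.86) and not under DEX (1.54, limma adjusted p 0.0522).

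The sterol export genes showed the largest falls among the 9 further regulators and sterol sensing genes, of which 2 rose and 4 fell under DEX, VSG158 and VSG159, and 2 rose and 5 fell under FF. Abca1, the liver X receptor target that loads cholesterol onto apolipoproteins, measured 1.27, 1.04 and 0.95 under DEX, 0.70, 0.62 and 0.39 under FF, 0.54, 0.90 and -0.0027 under VSG158 and 0.31, 0.46 and 0.50 under VSG159, against 3.23, 2.77 and 3.08 in vehicle. All treated arrays lay far below vehicle, at -1.94 under DEX, -2.45 under FF, -2.55 under VSG158 and -2.60 under VSG159 (SE 0.20 each, highest limma adjusted p 1.12e-05). Abcg1, a partner in sterol export, was lower too, at -1.42 under DEX, -1.48 under FF, -1.51 under VSG158 and -1.60 under VSG159 (SE 0.12 each).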

How the data were processed

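The 15 arrays were grouped by their titles, with 3 per group. Per the file headers, the authors scanned one-colour arrays with Feature Extraction 10.7.3.1, and the deposited scanner files give a processed signal intensity per spot, background-subtracted and detrended within the array, beside the raw mean and local background intensities. The deposited value table holds log2 values, used as an alternative, whose columns have medians of 5.81 to 5.83 and correlate at 0.987 to 0.994 with the log2 processed signal; it was compared as it stands, and its normalization is not given in the sources used here. The submitters' processing notes name limma.

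Of 62976 spots, 3671 controls were left out, spots marked as outliers were set to missing and spots of a probe were averaged. The main value is the log2 processed signal less its 75th percentile on that array. A probe was tested if well above background on at least 2 of 3 arrays of a group (28508 probes), and the brightest tested probe stands for its gene (19506 genes, 1891 missing values, none in a member). The linear model took all arrays and had a term for group alone (limma 3.58.1, R 4.3.3), residual degrees of freedom 10 and prior 1.64. Contrasts were two-sided, Benjamini-Hochberg adjusted over all genes and called under 0.05. An exact permutation test of 3 against 3 cannot go below 0.1. The pipeline was tested on simulated data with each gene's spread taken from these arrays (18385 genes). Of 100 genes changed by 0.5 under FF on the log2 scale, 14 were called against vehicle. Of 100 changed by 1, 58 were called. Far fewer genes were changed there than were called in these data, so these shares cannot be carried over as they stand. Probe positions are those of the files (mm9), and promoter sequences are RefSeq's (GRCm38.p6).

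All members may be named. Values per array are given for the 8 members with the smallest F-test p, for the 3 with the largest change in each group of members, and for Srebf1, Srebf2, Insig1, Hmgcs1, Sqle and Fasn. Other pathway genes are named where called with an absolute log2 change of at least 1. The members, lists, tests and alternatives were chosen with earlier results of these data known. Precision is limited by the number of arrays. Alternatives were normexp background correction (offset 50), quantile and median scaling, the value table, no filter, the mean of all tested probes, slide as a fixed or random block, slide with array position, single slides, the replicate number as a block, and leaving out each array.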

Additional observations from a re-analysis of the deposited data

How the results depend on the processing

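Of the 82 calls against vehicle, 19 were kept under every alternative run, 38 under all but the fit with slide and array position, and 50 under all but that fit and median scaling. Single alternatives kept 78 (normexp), 79 (quantile), 45 (median scaling), 73 (value table), 72 (no filter, 36806 genes), 69 (mean of all tested probes), 64 (slide as a fixed block), 74 (slide as a random block) and 32 (slide with array position). Slide 1 alone kept 36 of 43. Of the 46 changes not called, 10 were called with slide as a fixed block, 9 in the value table, 8 with the mean of all tested probes, 7 with normexp, 4 with slide as a random block, 3 with quantile scaling, 1 with slide and array position and 0 with median scaling or without the filter. DEX and FF were never on a slide with vehicle, and position runs nearly with group, so these terms and the groups are hard to separate; dim probes such as that of Insig1 limit what can be read. The cause of the changes below was not tested.

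Median scaling called 2416, 2625, 2051 and 2461 of all genes higher under DEX, FF, VSG158 and VSG159, where the 75th percentile called 4526, 4070, 3848 and 3723, and 2510, 2091, 2943 and 2292 lower, where it called 4511, 4168, 4776 and 4872. No scaling moved the median of all genes by more than 0.074. With median scaling, 8 members were higher and 1 lower under DEX, 0 lower under FF, 9 higher and 1 lower under VSG158 and 0 lower under VSG159, 0 differed between FF and DEX, and the sterol median was 0.46 under VSG158 and 0.47 under VSG159. With slide and array position, 0 members were higher and 0 lower under DEX, 4 and 0 under FF, 11 and 0 under VSG159, and 0 lower under VSG158, and 0 differed between FF and DEX. The fatty acid medians were then 1.31 under DEX, 1.43 under FF, 1.11 under VSG158 and 1.33 under VSG159, the sterol medians 0.60 under VSG158 and 0.53 under VSG159, and the regulator medians -0.052 under FF and -0.17 under VSG158. In the same fit Cyp51 turned to -0.29 under DEX and -0.056 under FF, and Hmgcs1 to 0.37 under DEX.

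With the mean of all tested probes, the fatty acid medians were 0.48 under DEX, 0.79 under FF and 0.69 under VSG158, the sterol medians 0.39 under DEX and 0.53 under VSG159, and the regulator medians 0.19 under DEX, -0.037 under VSG158 and 0.21 under VSG159. There 5 members were lower under VSG158, 1 differed between FF and DEX, and Stard4 turned to 0.32 under VSG159 (limma adjusted p 0.0214). With slide as a fixed block, the regulator medians were -0.28 under DEX and -0.11 under FF, the sterol medians 0.34 under DEX and 0.49 under VSG159, 1 member was lower under FF, and 1 (Fads2) differed between VSG159 and DEX. With slide as a random block, the sterol median under FF was 0.64 and 1 member was lower. On slide 1 alone, the sterol median under VSG159 was 0.49. The value table gave a regulator median of -0.0037 and a sterol median of 0.29 under DEX, 1 member lower under FF, 1 differing between VSG158 and DEX and 1 between VSG159 and DEX. Normexp gave 0.021 and 0.33 for these medians under DEX, 0.46 for the sterol median under VSG158, 1 member lower under FF, and 1 differing from DEX for each of VSG158 and VSG159. Quantile normalization gave a sterol median of 0.38 under DEX and 1 member lower under FF. Without the filter, 1 member was lower under FF, 2 under VSG159, and 0 differed between FF and DEX.

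Leaving out each array in turn gave 15 to 16 members higher and 3 to 5 lower under DEX, 17 to 19 and 1 to 3 under FF, 16 to 20 and 2 to 4 under VSG158, and 16 to 18 and 1 to 5 under VSG159. Between compounds it gave 0 to 4 for FF against DEX, 0 to 1 for VSG158 and 0 to 1 for VSG159 against DEX, and 0 for the other 3 pairs. The fatty acid medians ran from 0.71 to 0.76 under DEX, 0.89 to 1.07 under FF, 0.79 to 0.90 under VSG158 and 0.86 to 0.95 under VSG159. The sterol medians ran from 0.40 to 0.48, 0.50 to 0.59, 0.47 to 0.55 and 0.37 to 0.49 in the same order, and the regulator medians from -0.17 to -0.11, -0.13 to 0.078, -0.13 to 0.080 and -0.22 to -0.15.

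Replicate numbers were not stated to pair samples. Of 30 same-numbered pairs, 7 had deviations from the group means that correlated above 0.1 (-0.552 to 0.302). Of 60 differently numbered pairs, 19 did (-0.365 to 0.506). With the replicate number as a block, 80 of the 82 calls were kept. Fads1 (0.57, limma adjusted p 0.0578) and Srebf1 (-0.33, 0.0642) under VSG158 were not, and 0 members differed between FF and DEX.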
